A study of Homo sapiens with 4 samples.

Results

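Daoy, an established human medulloblastoma cell line, was examined by RNA sequencing for 10 genes that mark mesenchymal, epithelial and neural progenitor identity. They were VIM, CDH2, ZEB1, SNAI2, TWIST1, NES, SOX4, SOX9, CDH1 and EPCAM, taken by gene name from the 59384 gene names of the count table, and all 10 were present. The shFABP4 group held 2 libraries of cells that received a lentivirus with a short hairpin against FABP4, a fatty acid binding protein, and that are labelled as FABP4 knockdown. The pLKO group held 2 libraries of cells that received the pLKO control virus and are labelled as wild type. All 4 libraries therefore share the line and a lentiviral infection, and the labels give neither the hairpin's sequence nor a time after infection. Libraries are called shFABP4 1, shFABP4 2, pLKO 1 and pLKO 2 after their labels.

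Epithelial cells hold to each other through E-cadherin (CDH1) and EPCAM, whereas mesenchymal cells carry N-cadherin (CDH2) and a cytoskeleton of the intermediate filament vimentin (VIM). The transcription factors SNAI2, ZEB1 and TWIST1 are known from epithelial to mesenchymal transition, in which they repress CDH1, SNAI2 and ZEB1 by binding E-box sequences in its promoter. Nestin (NES), SOX4 and SOX9 are known from progenitors of the developing nervous system, and medulloblastoma is a tumour of the cerebellum.

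VIM stood far above the other 9 genes in every library, and it was the 1 gene of the 10 whose level in both shFABP4 libraries could be read above the background described next. Relative to 4 other abundant transcripts of the same library, VIM was 2.12 to 3.22 times as high in shFABP4 as in pLKO. In shFABP4 2, the deeper shFABP4 library, VIM, CDH2 and ZEB1 were higher than in pLKO by 3.51, 3.65 and 6.88 times, and SNAI2 was lower, at 0.156 of the pLKO level (edgeR fold changes of 1 library against 2, tests below). CDH1 and EPCAM were at or near the floor of detection in shFABP4 2 and in both pLKO libraries.

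The 4 libraries were unequal, which sets what each value can show. Counted fragments numbered 2539862 in shFABP4 1 and 20431660 in shFABP4 2, against 8988961 in pLKO 1 and 13839885 in pLKO 2. shFABP4 1, though the least deep, held a fragment in 51762 gene names, and the others did in 22350 to 25560. The 2656 coding genes that were silent in the other 3 libraries still carried 3.44 fragments per kb of exon in shFABP4 1 at under 40% GC and 18.4 at over 60% GC, and at those rates 54.9% of that library's fragments were expected as background. FABP4, the targeted gene, had 14 and 0 fragments in shFABP4 1 and 2, against 1 and 6 in pLKO 1 and 2. The count in the library labelled shFABP4 1 thus lay above pLKO, against its label. As background 4.71 fragments were expected there by GC content and 11.8 by length alone. The exact 95% Poisson interval of the count, 7.65 to 23.5, includes the latter. With so few fragments in every library, these counts cannot decide how FABP4 RNA differed. The labels do not state whether replicates were grown as separate cultures, and the p-values below therefore reflect the spread of these 4 libraries only, which may be technical.

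Stretches of 250 bases that end at the base before the RefSeq start of a gene (GRCh38.p14) were examined for VIM, NES, SOX4, ZEB1 and CDH2. Those of VIM, ZEB1 and CDH2 are shown because these 3 genes differed most upward in shFABP4 2. Capitals mark the motifs searched on both strands, which were TATAAA (the TATA box), GGGCGG (the GC box), CCAAT (the CCAAT box) and CAGGTG (an E-box that SNAI and ZEB proteins bind). The VIM stretch is chr10:17227991-17228240 on the plus strand, the ZEB1 stretch is chr10:31321410-31321659 on the plus strand and the CDH2 stretch is chr18:28036642-28036891 on the minus strand. The ZEB1 and CDH2 stretches precede a start inside the locus, not the outermost start of the count table's annotation.
VIM: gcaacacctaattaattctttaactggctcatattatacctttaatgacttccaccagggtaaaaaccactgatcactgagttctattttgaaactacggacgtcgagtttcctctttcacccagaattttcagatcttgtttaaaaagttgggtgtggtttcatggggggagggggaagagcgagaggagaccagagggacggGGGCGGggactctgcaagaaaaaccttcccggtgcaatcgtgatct
ZEB1: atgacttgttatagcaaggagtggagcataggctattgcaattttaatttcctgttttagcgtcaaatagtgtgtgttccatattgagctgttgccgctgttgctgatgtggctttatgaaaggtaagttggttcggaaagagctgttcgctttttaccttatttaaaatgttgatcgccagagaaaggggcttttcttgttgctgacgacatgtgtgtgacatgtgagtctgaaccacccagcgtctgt
CDH2: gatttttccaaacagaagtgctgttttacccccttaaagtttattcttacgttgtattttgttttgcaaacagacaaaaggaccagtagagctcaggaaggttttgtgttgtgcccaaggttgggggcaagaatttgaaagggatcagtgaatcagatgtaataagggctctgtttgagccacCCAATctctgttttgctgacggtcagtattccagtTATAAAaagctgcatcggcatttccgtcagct

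The VIM stretch held 1 GGGCGG, 46 bases before the start, a motif present in 42.6% of all 35116 such stretches. CDH2 held TATAAA 32 bases and CCAAT 67 bases before the start, where 10.7% and 32.0% of all stretches hold these motifs. The ZEB1 stretch held none of the 4. NES held 2 GGGCGG on the opposite strand, 62 and 50 bases before the start, and SOX4 held 4 CCAAT, 1 on its own strand and 3 on the opposite one. CAGGTG, in 17.5% of all stretches, was in none of the 5, which says only that these letters are not in these windows. The other 5 genes were named only.

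Levels of different genes were compared as CPM per kb of exon (FPKM), where CPM is the fragment count scaled to the library total. In pLKO, VIM led with 298 ± 2.08 FPKM (SD, n = 2 in this and the following pLKO values), followed by TWIST1 at 3.97 ± 0.138 and CDH2 at 2.61 ± 0.193. SOX4 at 1.78 ± 0.129 and SNAI2 at 1.69 ± 0.229 did not differ beyond their spread and changed places between the pLKO libraries. SOX9 followed at 1.20 ± 0.0174, then NES at 0.797 ± 0.139 and ZEB1 at 0.458 ± 0.0803, each apart from its neighbour in both libraries. EPCAM at 0.195 ± 0.146 and CDH1 at 0.0119 ± 0.0168 came last. The order in shFABP4 2 was VIM, CDH2, TWIST1, SOX4, ZEB1, SOX9, NES, SNAI2, EPCAM and CDH1, so that CDH2 stood above TWIST1, ZEB1 above SOX9 and NES, and SNAI2 below them. That order rests on 1 library.

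**Figure D1:**
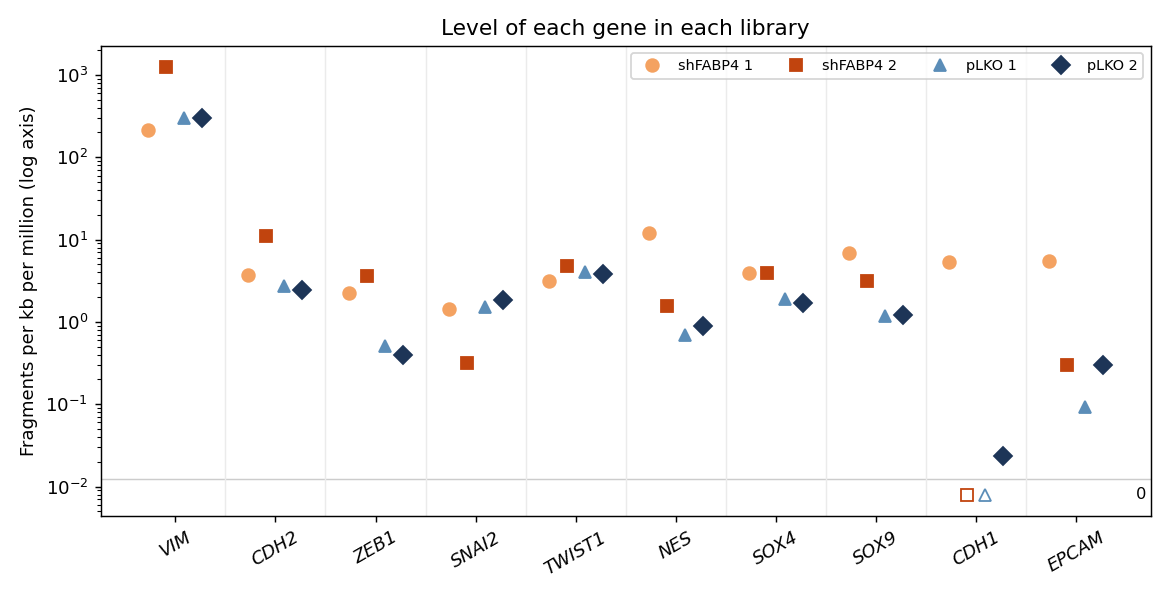
FPKM (log axis) of each of the 10 genes in each library, with the shFABP4 libraries to the left of the pLKO libraries. VIM lies far above the others in every library, and the pLKO points lie close together for most genes. The shFABP4 points lie apart most for VIM, NES, SNAI2, CDH1 and EPCAM. They also lie apart for CDH2 (3.67 and 11.2 FPKM in shFABP4 1 and 2) and SOX9 (6.81 and 3.10 FPKM). Open symbols below the line mark CDH1 counts of 0 in shFABP4 2 and pLKO 1.

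In shFABP4 1 only VIM lay clear of the background. The count of VIM there, 2830 fragments, was 51.6 times the 54.8 fragments expected as background. The other members held 0.490 (TWIST1) to 1.97 (CDH2) times the expected number. Among 1844 silent coding genes with at least 10 fragments expected, this ratio ran from 0 to 2.88 between the 5th and the 95th percentile, so the count of none of these 9 genes lay outside what silent genes showed. Counting error alone gave a narrower limit, and the exact 95% Poisson interval of the count lay above the expected number for 6 genes, VIM, NES, SOX9, CDH2, CDH1 and EPCAM. These intervals cover counting error only. CDH2 was not among them when the rate was set by length alone, without GC content.

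**Figure D2:**
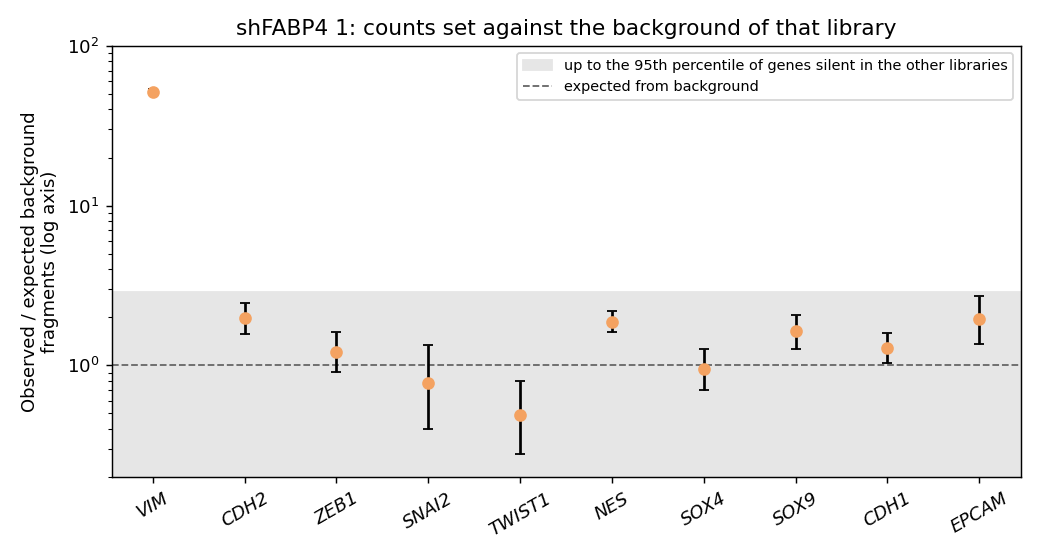
Fragments counted in shFABP4 1 divided by the fragments expected as background (log axis) for each of the 10 genes, with exact 95% Poisson intervals of the count. The dashed line marks a ratio of 1 and the grey band reaches up to 2.88, the 95th percentile of silent genes, with VIM far above it at 51.6 and the other 9 genes within it at 0.490 to 1.97.

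VIM, on chromosome 10 from 17228241 to 17237593 (GRCh38, plus strand, 5176 bases of merged exons), had 2830 and 131016 fragments in shFABP4 1 and 2, against 13811 and 21475 in pLKO 1 and 2. In CPM these were 1114 and 6412 in shFABP4, against 1536 and 1552 in pLKO. On this scale shFABP4 1 lay below and shFABP4 2 above pLKO, and the denominator of shFABP4 1 includes its background. VIM shares 24.3% of its exon bases with genes on the opposite strand, 641 with VIM-AS1 and 619 with RP11-124N14.3, and the counting did not use strand. VIM-AS1 held 2 and 58 fragments in shFABP4, against 10 and 12 in pLKO, and RP11-124N14.3 held 0 in every library.

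A ratio of transcripts within a library needs no scaling between libraries. The genes set beside VIM were the list genes whose RNA, predicted from pLKO, exceeded the background of shFABP4 1 at least 5 times, namely the mesenchymal lectin LGALS1 and the keratins KRT7, KRT8 and KRT18 of simple epithelia. VIM per LGALS1 (levels per kb) was 0.345 and 0.348 in shFABP4 1 and 2, against 0.108 and 0.107 in pLKO 1 and 2, which is 3.22 times as high in shFABP4. The shFABP4 libraries gave nearly the same ratio despite their unequal depth. VIM per KRT7 was 1.58 and 1.34 in shFABP4, against 0.622 and 0.638 in pLKO, and VIM per KRT18 was 2.08 and 1.97 in shFABP4, against 0.962 and 0.948 in pLKO. VIM per KRT8 was 6.06 and 5.73 in shFABP4, against 2.03 and 2.03 in pLKO. None of the 4 ratios overlapped between the groups. The folds were 2.32 for KRT7, 2.12 for KRT18 and 2.91 for KRT8. Among the other abundant genes both shFABP4 libraries lay above both pLKO libraries for 21.6% as ratios to LGALS1, 8.81% to KRT7, 16.6% to KRT8 and 7.63% to KRT18. With background subtracted from both genes, the ratios in shFABP4 1 were 0.342, 1.62, 7.26 and 2.18 to LGALS1, KRT7, KRT8 and KRT18. An exact two-sided permutation test of 2 libraries against 2 cannot go below p = 0.333.

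**Figure D3:**
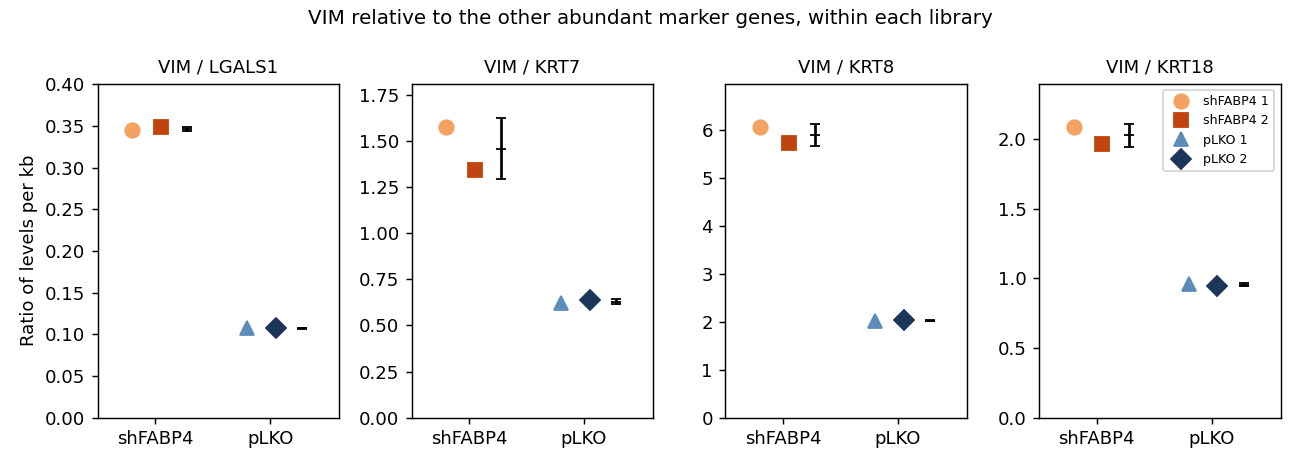
VIM divided by LGALS1, KRT7, KRT8 and KRT18 (levels per kb) within each library, with the mean and SD of each group (n = 2) beside its points. In all 4 panels both shFABP4 libraries lie above both pLKO libraries, by 2.12 to 3.22 times in the means.

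VIM was also tested among the 1023 coding genes whose expected RNA in shFABP4 1, predicted from pLKO alone, was at least 5 times its background. With libraries scaled to each other by these genes, VIM was at 4261 and 7707 CPM in shFABP4 1 and 2, against 1535 and 1553 CPM in pLKO 1 and 2. The 2 groups did not overlap. VIM rose in shFABP4 by 1.96 on the log2 scale, with an SE of 0.36 (adjusted p = 0.0420, edgeR over these 1023 genes). Of the 10 genes VIM was the 1 in this set, where 10.1% of genes were called higher and 11.5% lower. The lower shFABP4 value was 2.74 times the higher pLKO value, and 16 of the 1023 genes (1.56%) had a ratio at least as high. LGALS1 (log2 fold change 0.27, adjusted p = 0.585, edgeR), KRT7 (0.79, 0.241), KRT8 (0.43, 0.418) and KRT18 (0.89, 0.161) did not pass. The call of VIM did not hold without pLKO 1 (log2 fold change 1.95, adjusted p = 0.229, edgeR, with 3 genes called in place of 221) or without pLKO 2 (1.96, 0.224, with 3 genes called). It did not hold with a set at 2 times the background (1.82, 0.117) or with scaling by all fragments (1.29, 0.624).

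Across all 14735 genes that passed the filter on low counts, edgeR called 0 genes (0%) between shFABP4 and pLKO, with 1818 at an unadjusted p under 0.05. DESeq2 called 719 and limma-voom 0. Of the 10 genes 8 passed the filter, CDH1 and EPCAM did not, and 0 of the 8 were called. Replicates varied with a coefficient of variation of 0.683 in this fit. In the fit's own scaling (TMM) both shFABP4 libraries lay above both pLKO libraries for 4 of the 8, NES, SOX4, SOX9 and ZEB1, where 28.5% of all tested genes did so. Both lay below for 1, SNAI2, where 26.1% of all tested genes did so. The median log2 fold change was 1.03 over the 8 genes and 0.34 over all tested genes, and the median over all tested genes was 1.30 with scaling by all fragments and 2.43 with scaling by the abundant genes.

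Leaving out shFABP4 1 removes its background but leaves 1 shFABP4 library. That fit compared shFABP4 2 with both pLKO libraries and took the spread from the pLKO pair (coefficient of variation 0.0434), with shFABP4 2 assumed to vary as little, so its p-values are too small if shFABP4 cultures vary more. It called 34.2% of 15301 genes higher and 32.7% lower. Of the 10 genes 9 were tested, 6 were called higher and 1 lower, with a median log2 fold change of 0.92 against 0.04 over all genes tested. With shFABP4 2 left out in its place, shFABP4 1 against pLKO gave log2 fold changes of -2.72 for VIM, -1.75 for CDH2, -1.08 for SOX4, -2.48 for SNAI2, -2.57 for TWIST1 and 1.64 for NES under TMM over all genes, background included. In that fit, where 56.6% of 27830 genes were called higher and 29.3% lower, ZEB1 at 0.09 (adjusted p = 0.803, edgeR) and SOX9 at 0.25 (0.409) were not called. CDH1 at 6.13 (adjusted p = 1.04e-18, edgeR) and EPCAM at 2.42 (0.000902) were called higher, with the counts and expected background given for them below. VIM, CDH2, SOX4 and TWIST1 thus had opposite signs in these fits, which share the pLKO libraries. TWIST1 was only at 0.02 without shFABP4 1.

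Subtracting the expected background from shFABP4 1 and scaling by the abundant genes gave a further view of the low genes, as values with no test. CDH2 was then at 59.2 and 116 CPM in shFABP4 1 and 2, against 23.6 and 21.3 CPM in pLKO 1 and 2, and ZEB1 at 13.6 and 38 CPM in shFABP4, against 4.45 and 3.47 CPM in pLKO. SOX9 was at 39.7 and 14.7 CPM in shFABP4, against 4.67 and 4.77 CPM in pLKO, and NES at 120 and 10.6 CPM in shFABP4, against 3.89 and 4.99 CPM in pLKO. CDH2, ZEB1, SOX9 and NES lay above pLKO in both shFABP4 libraries on this scale, although their unsubtracted counts in shFABP4 1 lay within the range of silent genes. The share of all tested genes whose groups did not overlap on this scale was not counted. Before subtraction the median log2 fold change over all tested genes was 2.43 with this scaling. These positions therefore cannot be set apart from those of genes in general. EPCAM did not overlap either, at 24.9 and 0.882 CPM in shFABP4, against 0.222 and 0.723 CPM in pLKO, while CDH1 was at 28.03 and 0 CPM in shFABP4, against 0 and 0.145 CPM in pLKO. SNAI2, TWIST1 and SOX4 had fewer fragments in shFABP4 1 than expected as background, and were set to 0 there. TWIST1 and SOX4 then overlapped with pLKO, and SNAI2 lay below pLKO in both shFABP4 libraries. A value set to 0 has to lie below pLKO, so the position of SNAI2 in shFABP4 1 shows nothing further. Before subtraction SNAI2 overlapped on this scale, at 18.1 and 1.24 CPM in shFABP4, against 5.00 and 6.07 CPM in pLKO.

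CDH2, N-cadherin, lies on chromosome 18 from 27932879 to 28177946 (minus strand, 8583 exon bases). It had 80 and 1963 fragments in shFABP4 1 and 2, against 212 and 294 in pLKO 1 and 2, or 31.5 and 96.1 CPM in shFABP4, against 23.6 and 21.2 CPM in pLKO. On the CPM scale both shFABP4 libraries were above both pLKO libraries, while under TMM they overlapped, with 20.8 and 111 in shFABP4, against 32.1 and 29.1 in pLKO. The share of all genes that lay above pLKO on the CPM scale was not counted. In shFABP4 1 40.7 of its 80 fragments were expected as background. In shFABP4 2 CDH2 was called higher, by 1.87 on the log2 scale (SE 0.079, adjusted p = 1.41e-34, edgeR), and 6.77% of tested genes lay above it. VIM was at 1.81 in the same fit (SE 0.022, adjusted p = 1.24e-70, edgeR), with 7.23% of tested genes above it. With all 4 libraries CDH2 was at 1.11 (SE 0.90, adjusted p = 0.529, edgeR) and VIM at 0.95 (SE 1.52, adjusted p = 0.748, edgeR).

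The transcription factors of epithelial to mesenchymal transition were called in different directions in shFABP4 2. ZEB1, a zinc finger repressor on chromosome 10 from 31318495 to 31529814 (plus strand, 8650 exon bases), had 50 and 646 fragments in shFABP4 1 and 2, against 40 and 48 in pLKO 1 and 2. In CPM these were 19.7 and 31.6 in shFABP4, against 4.45 and 3.47 in pLKO. Both shFABP4 libraries lay above both pLKO libraries under each of the 3 scalings used, as they did for NES, SOX4 and SOX9. Of all tested genes 28.5% did so under TMM, and the share under the other scalings was not counted. In shFABP4 1 41.0 of its 50 fragments were expected as background. ZEB1 was called higher in shFABP4 2 by 2.78 on the log2 scale (SE 0.17, adjusted p = 7.06e-25, edgeR), and 2.26% of tested genes lay above it. Without shFABP4 2 ZEB1 was at 0.09 (adjusted p = 0.803, edgeR). With all 4 libraries it was at 2.20 (SE 0.71, adjusted p = 0.391, edgeR). The antisense gene ZEB1-AS1, which shares 396 exon bases with it, held 20 and 70 fragments in shFABP4, against 29 and 56 in pLKO.

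SNAI2, also named Slug, lies on chromosome 8 from 48917598 to 48921740 (minus strand, 3281 exon bases). It had 12 and 21 fragments in shFABP4 1 and 2, against 45 and 84 in pLKO 1 and 2. In CPM these were 4.73 and 1.03 in shFABP4, against 5.01 and 6.07 in pLKO. The count in shFABP4 1 was below the 15.6 fragments expected there as background. In shFABP4 2 SNAI2 was called lower, at -2.68 on the log2 scale (SE 0.35, adjusted p = 3.07e-10, edgeR), and 96.5% of tested genes lay above it. With all 4 libraries it was at -1.85 (SE 0.80, adjusted p = 0.392, edgeR), and at 0.71 when scaled by the abundant genes. ZEB1 per SNAI2 (levels per kb) was 1.58 and 11.7 in shFABP4 1 and 2, against 0.337 and 0.217 in pLKO 1 and 2. The counts of both genes in shFABP4 1 lay within the range of silent genes. How often other gene pairs differ as much was not counted. SNAI2 was thus the more abundant of the pair in both pLKO libraries and ZEB1 in shFABP4 2.

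TWIST1, a basic helix-loop-helix factor on chromosome 7 from 19020991 to 19117636 (minus strand, 1997 exon bases), had 16 and 194 fragments in shFABP4 1 and 2, against 73 and 107 in pLKO 1 and 2. In CPM these were 6.30 and 9.50 in shFABP4, against 8.12 and 7.73 in pLKO, so the groups overlapped. TWIST1 was at a log2 fold change of 0.02 in shFABP4 2 (SE 0.19, adjusted p = 0.932, edgeR) and -0.50 with all 4 libraries (SE 0.69, adjusted p = 0.705, edgeR). In shFABP4 1 32.7 fragments were expected as background, more than the 16 counted.

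**Figure D4:**
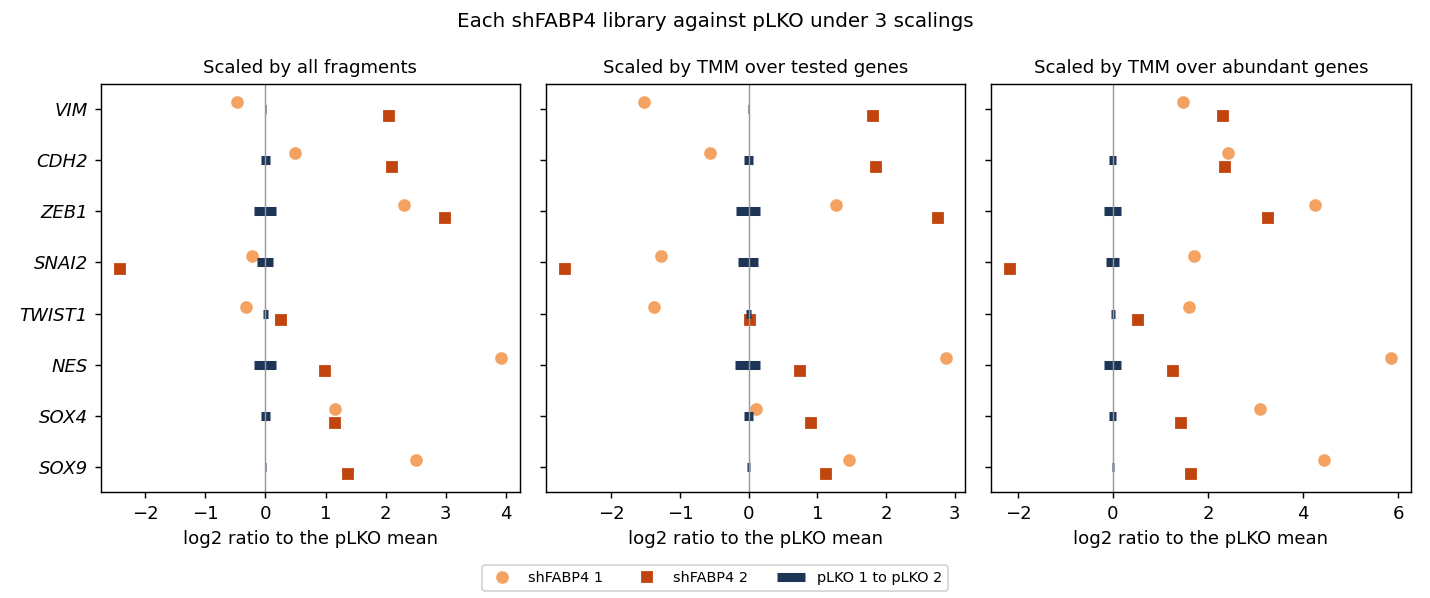
Log2 ratio of each shFABP4 library to the pLKO mean for the 8 genes that passed the filter, scaled by all fragments, by TMM over tested genes and by TMM over abundant genes (the horizontal axes differ), with bars from pLKO 1 to pLKO 2. shFABP4 2 keeps its side of the pLKO mean in all 3 panels for every gene, with TWIST1 within the pLKO range under TMM over tested genes, while shFABP4 1 changes side for VIM, CDH2, SNAI2 and TWIST1.

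SOX9, SOX4 and NES were higher in shFABP4 2 with smaller fold changes than ZEB1, CDH2 or VIM. The median log2 fold change of the 9 tested neural progenitor markers was -0.31 there, so these genes do not stand for that list. SOX9, a factor of neural stem cells and glia on chromosome 17 from 72121020 to 72126416 (plus strand, 3931 exon bases), had 68 and 249 fragments in shFABP4 1 and 2, against 42 and 66 in pLKO 1 and 2. These were 26.8 and 12.2 CPM in shFABP4, against 4.67 and 4.77 CPM in pLKO. SOX9 was called higher in shFABP4 2 by 1.12 on the log2 scale (SE 0.20, adjusted p = 1.41e-06, edgeR). SOX4, a factor of neuronal differentiation and of many tumours, is a gene of 1 exon on chromosome 6 from 21593751 to 21598619 (plus strand, 4869 bases). It had 49 and 396 fragments in shFABP4 1 and 2, against 82 and 114 in pLKO 1 and 2, or 19.3 and 19.4 CPM in shFABP4, against 9.12 and 8.24 CPM in pLKO. The nearly equal CPM of the shFABP4 libraries included 51.6 fragments expected as background in shFABP4 1, more than were counted there. SOX4 was called higher in shFABP4 2 by 0.92 (SE 0.16, adjusted p = 3.90e-07, edgeR).

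NES, an intermediate filament of neural progenitors, lies on chromosome 1 from 156668763 to 156677407 (minus strand, 5568 exon bases). It had 171 and 180 fragments in shFABP4 1 and 2, against 35 and 69 in pLKO 1 and 2, or 67.3 and 8.81 CPM in shFABP4, against 3.89 and 4.99 CPM in pLKO. Both shFABP4 libraries lay above both pLKO libraries, by very unequal amounts, where 28.5% of all tested genes did so under TMM. In shFABP4 1 91.1 of the 171 fragments were expected as background. NES was called higher in shFABP4 2 by 0.71 on the log2 scale (SE 0.22, adjusted p = 0.00348, edgeR). With all 4 libraries NES was at 2.16 (SE 0.88, adjusted p = 0.392, edgeR), SOX9 at 1.30 (SE 0.51, 0.391) and SOX4 at 0.57 (SE 0.53, 0.573).

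The epithelial adhesion genes stayed near the floor outside shFABP4 1. CDH1, on chromosome 16 from 68737292 to 68835537 (plus strand, 6076 exon bases), had 83 and 0 fragments in shFABP4 1 and 2, against 0 and 2 in pLKO 1 and 2. A count of 0, taken to allow 3 counts, allows up to 0.147 CPM in shFABP4 2 and 0.334 CPM in pLKO 1. Its exact 95% Poisson interval reaches 0.1805 CPM in shFABP4 2 and 0.4104 CPM in pLKO 1. These limits cover counting error only. EPCAM, on chromosome 2 from 47345158 to 47387601 (plus strand, 2430 exon bases), had 34 and 15 fragments in shFABP4 1 and 2, against 2 and 10 in pLKO 1 and 2. In shFABP4 2 it was at 0.734 CPM, against 0.222 and 0.723 CPM in pLKO, and its difference of 0.26 on the log2 scale (SE 0.81, adjusted p = 0.786, edgeR) did not pass. The CDH1 and EPCAM fragments of shFABP4 1 compare with 64.4 and 17.4 expected as background. CDH2 and VIM were therefore detected in shFABP4 2 and pLKO 1 where CDH1 was not. The simple keratins KRT7, KRT8 and KRT18 were nonetheless abundant in all 4 libraries, with 137 and 922 FPKM of KRT7 in shFABP4 1 and 2, against 478 and 470 FPKM in pLKO 1 and 2.

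Other genes of the same pathways are given from lists, each beside the all-gene values of the same fit. In the fit with all 4 libraries 0 genes of any list were called. In shFABP4 2 against pLKO, where 34.2% of genes were higher and 32.7% lower, 10 of 13 tested mesenchymal markers, VIM and CDH2 included, were higher and 1 lower (median 0.93), with TGFBI, a matrix protein, at 0.45, LGALS1 at 0.11 and the receptor kinase AXL, not called, at 0.08. Of 7 tested catenins and cadherin partners 6 were higher and 1 lower (median 1.08). VCL, vinculin, was the highest of them at 3.63, with 73.5 FPKM in shFABP4 2, against 4.97 and 5.06 FPKM in pLKO. CTNNA1, which links cadherins to actin, was at 0.49, and CTNNB1, beta-catenin, was lower at -0.41. Of 7 tested type III and IV filaments, which include VIM and NES, 4 were higher and 1 lower (median 1.07), with the astrocyte filament GFAP at 2.32, SYNM at 0.59 and the neurofilament NEFL at -1.71. Of 8 tested classical cadherins 3 were higher and 1 lower (median 0.22), with CDH4 at 0.98, CDH15, not called, at -0.41 and CDH24 at -0.69.

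Among 12 tested factors of epithelial to mesenchymal transition, which include ZEB1, SNAI2 and TWIST1, 4 were higher and 3 lower in shFABP4 2 (median -0.01). TWIST2, not called, was at -0.24, GSC at -0.89 and TCF3 at 0.23. The other SNAI genes were named after their values were seen. SNAI3 held 98 and 0 fragments in shFABP4 1 and 2, against 14 and 16 in pLKO 1 and 2. SNAI1 held 34 and 57 fragments in shFABP4, against 9 and 16 in pLKO, and was higher in shFABP4 2 by 1.10 (adjusted p = 0.0165, edgeR). Of 11 cofactors of E-box repressors 8 were higher and 2 lower (median 0.53), with the corepressor CTBP1 at -0.97, the demethylase KDM1A at 0.53 and HDAC1, not called, at 0.07. Among 9 tested neural progenitor markers 4 were higher, among them NES, SOX4 and SOX9, and 2 were lower (median -0.31). HES1, a Notch target, was at 1.20, NOTCH1 at -1.55 and MSI2 at -0.31. Of 10 tested SOX genes 2 were higher, SOX4 and SOX9, and 0 lower (median -0.06), with SOX12, SOX17 and SOX18 at -0.22 to -0.25 and not called. Of 11 tested epithelial markers 4 were higher and 1 lower (median 0.66), with KRT7 at 0.72 (adjusted p = 3.58e-42, edgeR), KRT8 at 0.31 and KRT18 at 0.77.

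**Figure D5:**
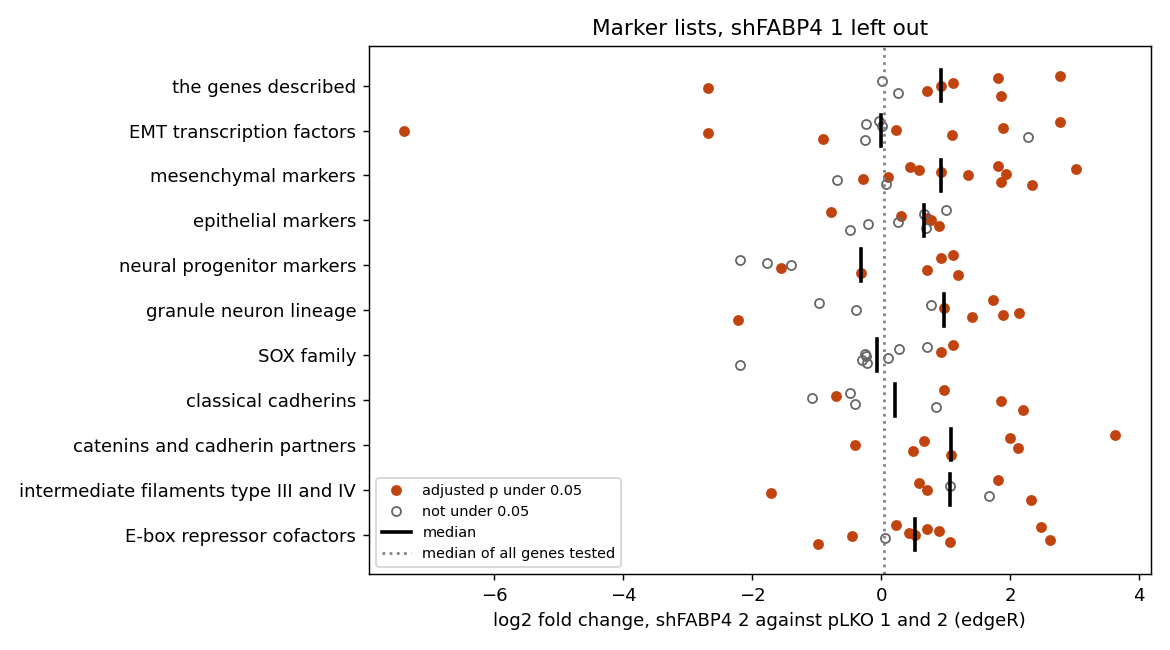
Log2 fold change of shFABP4 2 against pLKO 1 and 2 (edgeR, shFABP4 1 left out) for each tested gene of the lists, filled where the adjusted p was under 0.05, with each list's median as a bar and the all-gene median of 0.04 as a dotted line. The fitted value of SNAI3, at the far left, depends on the prior count because its count in shFABP4 2 is 0.

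Markers of the granule neuron lineage were low. Of 18 granule neuron lineage genes 9 passed the filter, and ATOH1, BARHL1 and OTX2, named after their values were seen, had no fragment outside shFABP4 1. Of the 9 tested in shFABP4 2, 5 were higher and 1 lower (median 0.98), with ZIC2 at 1.74, GLI1 at 1.90 and GLI2 at 2.13, GLI1 and GLI2 being effectors of Hedgehog signalling. Markers of other cell types were mostly low outside shFABP4 1. Their summed CPM in shFABP4 2, against pLKO 1 and 2, were 1.76, against 1.11 and 0.939, for 6 endothelial genes and 19.5, against 24.1 and 20.3, for 8 blood genes. HBB, named after its values were seen, made up most of the blood sum. It was at 11.2 FPKM in shFABP4 2, against 13.9 and 11.3 FPKM in pLKO 1 and 2. In pLKO HBB thus lay above every gene described except VIM. Muscle (7 genes) and adipocyte (5 genes) sums were at most 2.82 CPM in these 3 libraries. Glial (8 genes, mostly MBP and GFAP) and hepatocyte (6 genes, mostly SERPINA1) sums were higher in shFABP4 2, at 55.8 and 49.2 CPM, against 14.5 to 16.0 and 9.25 to 9.57 CPM in pLKO, and MBP (1.67), GFAP (2.32) and SERPINA1 (2.39) were each called higher there on the log2 scale. A fragment was found in shFABP4 2 for 3 of the 8 glial genes, against 6 and 5 in pLKO 1 and 2, and for 2 of the 6 hepatocyte genes, against 3 in each pLKO library. Those at 0 in shFABP4 2 included AQP4, OLIG2, SOX10, MOG, ALB, APOB, TTR and FGA, and AQP4, OLIG2, APOB and TTR were at 0 in both pLKO libraries as well. In shFABP4 1 the sums of these 6 lists were 144 to 257 CPM, which is 0.991 to 2.01 times the expected background. Their part in the values above was not tested. In such bulk RNA fewer cells of a type and less RNA per cell cannot be told apart.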

How the data were processed

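The 4 RNA-seq libraries (2 shFABP4, 2 pLKO) were grouped by the sample labels. Per the labels' protocols, mRNA was captured on beads and fragmented with Tn5. The submitters' processing notes name GRCh38 as build and FastQC, HISAT and StringTie as tools, and give no versions. The table the authors deposited holds raw counts per gene name from featureCounts 2.0.0 over exons of GENCODE 38, without a strand option, per the file headers. Overlapping antisense genes therefore cannot be separated. ANK2, whose row was broken over 7 lines, was left out. CPM and FPKM were computed from the counts and the deposited exon lengths.

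The test was the robust quasi-likelihood F test of edgeR 4.0.16 (R 4.3.3, two-sided), after TMM scaling and filterByExpr (minimum count 10, minimum total 15). P-values were adjusted by Benjamini-Hochberg over every gene tested, and those under 0.05 were called. DESeq2 1.42.0, limma 3.58.1 (voom), other scalings, no filter, a replicate block and each library left out were alternatives. Background in shFABP4 1 was set per kb in 6 bins of GC content, from GENCODE 29, to which 63.6% of gene names and all 10 genes described matched. Poisson intervals are exact at 95%, and a count of 0 allows 3 counts.

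The genes described and the lists (16 lists, 185 genes) were chosen with earlier results of these data known. Other genes were named by a rule, the 3 with the highest pLKO FPKM in each list apart from those of other cell types. Exceptions in these lists are stated beside their values. The glial and hepatocyte genes, GFAP apart, and the blood gene HBB were outside this rule. They were named after their values were seen. The value of 1 listed gene is not reported here.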

Additional observations from a re-analysis of the deposited data

How the results depend on the processing

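Over all genes edgeR called 0 with TMM, RLE, upper-quartile, total-count and abundant-gene scaling and limma-voom called 0, against 69 without the filter on low counts, 719 with DESeq2, and 0 to 23895 with 1 library left out (10242 without shFABP4 1, 23895 without shFABP4 2). Among abundant genes 221 were called, against 0 at 2 times background, 0 with total-count scaling, 363 with DESeq2, and 3 to 936 with 1 library left out. VIM among abundant genes was at 1.82 at 2 times background and at 1.29 with total-count scaling, neither called, and at 1.46 to 2.41 with 1 library left out (not called at 1.95 and 1.96 without pLKO 1 or 2). The same-numbered libraries did not deviate together (r = 0.0104 across 14735 genes). The background of shFABP4 1 enters this r, so it cannot show whether the numbers pair the libraries. With a replicate block 28 genes were called over all genes and 264 among abundant genes, where VIM was at 1.89.

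Fold changes over all genes were recomputed for the 8 members that passed the filter with all 4 libraries, so CDH1 and EPCAM are not counted here. Of these 104 fold changes 95 kept their direction and 9 reversed. Of the 96 with a test 13 were called, all with a shFABP4 library left out. VIM was at -0.35 with limma-voom and at -2.72 to 1.81 with 1 library left out. SOX4 was at -2.04 with background subtracted and at -1.08 to 0.92 with 1 library left out. The value of -2.04, counted among the 9 reversed, depends on the prior count (2) added before taking logs. SOX4 was set to 0 in shFABP4 1 there, while shFABP4 2 was at 23.3 CPM, against 9.11 and 8.24 CPM in pLKO 1 and 2. SNAI2 and TWIST1 were set to 0 in shFABP4 1 in that setting as well. SNAI2 was at 0.71 and TWIST1 at 1.14 with abundant-gene scaling. TWIST1 was at 0.22 with total-count scaling and at -2.57 to 0.02 with 1 library left out. With 1 library left out CDH2 was at -1.75 to 1.87, ZEB1 at 0.09 to 2.78 and SOX9 at 0.25 to 1.12. Why these values changed was not tested beyond the settings' own construction (the cause was not tested). Depth limits the low genes, with 3 counts at 1.18 CPM in shFABP4 1 and 0.147 to 0.334 CPM elsewhere.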
